A study of Arabidopsis thaliana with 8 samples.

Results

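Plates TA64 to TA99 are a stretch of a chromosome 4 tiling array of Arabidopsis thaliana on which dimethylation of lysine 4 of histone H3 (H3K4me2) was read by chromatin immunoprecipitation (ChIP-chip). The stretch comprises 3456 probe IDs on 36 plates, and 3332 of them, of 21295 probes with values on the whole array, had a value in all 4 replicates. An ID gives a plate, a row from A to H and a well, so that TA94E02 is row E, well 02 of plate TA94. The plates were chosen from the measured ratios themselves. They begin after the last plate of the TA series with a low median, end where the TB series starts, and hold the highest probe of the array. Their levels are therefore given as a description, with no test.

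The chromatin came from whole seedlings of a ColxC24 hybrid, a cross named for the accessions Col-0 and C24, grown for 10 days in liquid MS medium with no treatment. The strain tag names C24 alone, so the hybrid is taken from the source names. Immunoprecipitated DNA (IP), obtained with an H3K4me2 antibody from Upstate, was hybridised against input DNA of the same chromatin in replicates I to IV, each on a pair of arrays with the dyes swapped (8 arrays). All samples were of 1 genotype and 1 condition. The labels do not say whether the replicates were separate cultures or chromatin preparations, so the spread between them may be technical. A whole seedling mixes tissues and a hybrid holds both parental copies of each locus, so a lower mark per cell, fewer cells with the mark and a lower mark on 1 parental copy cannot be told apart.

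H3K4me2 is written by SET-domain methyltransferases and lies on nucleosomes over genes. In Arabidopsis it covers genes that are transcribed as well as many that are not, and it is scarce over silent, DNA-methylated transposons and in the heterochromatin of the centromere and of the knob on the short arm of chromosome 4. In the gene-rich arms its profile alternates between marked genes and unmarked intervals.

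Values are the authors' log ratios of the channels, taken as log2, minus the median of all valued probes of the same replicate. Neither the logarithm's base nor which channel stands over the other is given in the sources used here. "Above" and "below" mean relative to the median probe with the sign as deposited, and both would change places if the ratio were of input over IP. The columns of a dye swap differed at 0 probes and were counted as 1 replicate. The probes were not paired with genes, coordinates or sequences here: 0 of the 3332 IDs occur in the gene table of assembly TAIR10.1. Neighbours are therefore neighbours in ID order, and whether they adjoin on the chromosome was not checked.

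The stretch lay at the level of the median probe while its own plates and probes lay on both sides of it. In replicates I to IV its median was -0.0026, -0.0005, -0.04 and 0.02, with a mean of -0.0073 ± 0.027 (SD, n = 4). The replicates thus placed the middle of the stretch very close to 0, on either side of it. Averaged within the sets of replicates that share title numbers, the median was -0.0015 for I and II and -0.013 for III and IV. Around this middle, the lower and upper quartiles of the mean ratio were -0.73 and 0.80, and its 5th and 95th percentiles were -1.98 and 1.74.

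By limma's test for a distance over 0.5 from the median probe (adjusted p under 0.05 over all 21295 probes), 865 of the 3332 probes (26.0%) were called above, where the share over the whole array was 28.1%. Called below were 811 probes (24.3%), against 30.6% of the array. The remaining 1656 (49.7%) were not called, compared with 41.4% of all probes. These shares describe the stretch and nothing is read from them, since the choice of plates used the same ratios. Replicate I was most like III and II most like IV, yet the test took all 4 as independent. Its adjusted p may therefore be too small. A plain bound of 0.5 in all 4 replicates, with no test, gave 870 probes above (28.4% over the array) and 820 below (30.8%). With the deposited 0 in place of the median probe, 360 probes were called above (10.7% over the array) and 1204 below (39.3% over the array), so the balance of both sides depends on where 0 is placed.

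The far ends of the distribution were unequal. Probes over 2 numbered 75 (2.25%, against 1.74% of all probes), and 4 of the 13 probes of the array over 3 were here. Under -2 lay 161 probes (4.83%, against 12.1% of all), and 21 of the 640 probes of the array under -3 were here. The lowest values of the stretch thus stopped at -4.03, while the array reached -5.27.

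Some sets of plates near in level or in ID order gave the following values beside these. On plates TA52 to TA63, which come just before, the median was -0.89 ± 0.07 (SD, n = 4), with 10.6% of 1140 probes called above and 55.0% below. On the TB plates, which come next, it was 0.47 ± 0.02, with 38.8% of 9458 probes above and 14.0% below. The stretch lay between these neighbours in each of the 4 replicates. Of the sets compared here, plates TA01 to TA20 were closest in level, at 0.12 ± 0.03. They had 29.6% of 1864 probes above and 25.5% below. However, 9.92% of their probes lay under -2, where TA64 to TA99 had 4.83% and the TB plates 1.30%. The SD over probes was 1.12 in the stretch, 0.97 on the TB plates, 1.23 on TA52 to TA63 and 1.36 on TA01 to TA20. None of these differences was tested, because the levels had drawn the borders.

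**Figure D1:**
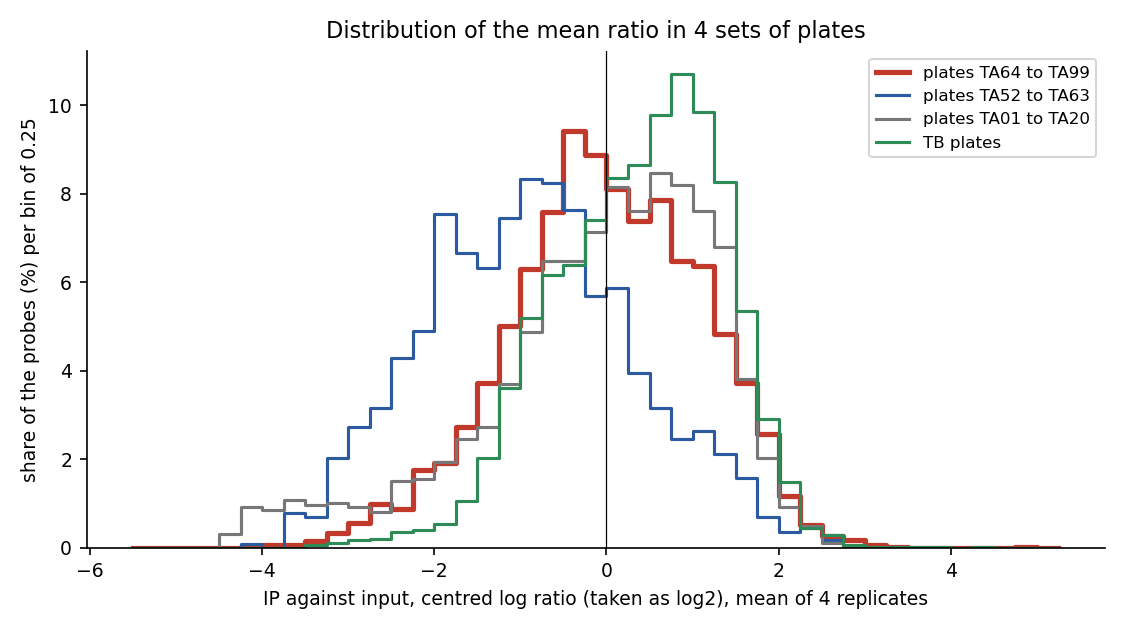
Share of probes (%) in bins of 0.25 of the mean ratio (centred log ratio, taken as log2, mean of 4 replicates) for plates TA64 to TA99 (thick line), TA52 to TA63, TA01 to TA20 and the TB plates. The thick line centres near 0, between TA52 to TA63 (median -0.89) and the TB plates (median 0.47), and lacks the low shoulder that TA01 to TA20 show under -2.

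At its start the stretch borders the low plates TA62 and TA63. Plate TA63 had medians of -1.46, -1.16, -1.44 and -1.15 in replicates I to IV, and TA64, the first plate of the stretch, -0.31, -0.22, -0.35 and -0.26. The plates differed by about 1 in every replicate. In mean, the ratio fell across the border itself, from TA63H12 (-0.85 ± 0.29, SD, n = 4) to TA64A01 (-1.37 ± 0.65). It then rose to 0.56 ± 0.29 at TA64A02. So few single probes cannot show where the level of the plates changed. At the other end, TA99 had medians of -0.68, -0.56, -0.65 and -0.61, and TB00 had 0.35, 0.39, 0.37 and 0.36. Here the last probes of the stretch were low, with TA99H12 at -2.02 ± 0.12, and the first probe of the next series, TB00A01, was at -0.24 ± 0.22.

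Taken as 3 groups of 12 plates, the stretch had its lowest level in the first group and its highest in the last. The change was not steady from plate to plate. The last group also held TA95 (-0.57 ± 0.06, SD, n = 4), TA97 (-0.64 ± 0.07) and TA99 (-0.63 ± 0.05), and the lowest plate, TA84, was in the middle group. The first 12 plates, TA64 to TA75, had a median of -0.15 ± 0.03 (SD, n = 4), with values from -0.18 to -0.12 in the replicates. The middle 12, TA76 to TA87, were at -0.01 ± 0.03 and lay on both sides of 0, and the last 12, TA88 to TA99, were at 0.15 ± 0.03, with values from 0.11 to 0.18. The ranges of the first, middle and last plates do not overlap. The share of probes called above was 22.4%, 26.1% and 29.4% in this order, and that called below 30.0%, 21.2% and 21.8%. This division into 3 was made after the values were known.

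Of the 36 plates, 15 had a median above that of the array in all 4 replicates, 16 below it in all 4, and 5 (TA71, TA73, TA79, TA86 and TA91) fell on both sides. With the deposited 0 in place of the median probe, 1 plate was above it in all 4. Among the first 12 plates 2 were above and 8 below, and among the last 12 plates 8 were above and 3 below. On the TB plates, 80 of 100 were above in all 4. The highest plate was TA81, at 0.82, 0.93, 0.78 and 0.84 in replicates I to IV, where 51 of 95 probes (53.7%) were called above and 5 below. TA90 followed at 0.82 ± 0.11 (SD, n = 4) with 49 of 93 above and 3 below, and then TA94 at 0.78 ± 0.07. All 3 exceeded every other plate of the stretch in mean, and their own replicates overlap.

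The lowest plate was TA84, at -0.99, -0.67, -1.01 and -0.51 in replicates I to IV. Plates TA62 and TA63 had a median under -1 in all 4 replicates, whereas TA84 was under -1 in III alone. That 0 of the 36 plates were under -1 in all 4 is no separate result. The stretch was chosen to begin after the last low plate. TA65 was next at -0.64 ± 0.06 (SD, n = 4), with 16 of 96 probes called above and 41 below, and TA97 followed at -0.64 ± 0.07, with 4 of 94 above and 39 below. High and low plates stood side by side: in 10 of the 35 pairs of neighbouring plates the medians lay on opposite sides of 0 in all 4 replicates. TA80, at -0.52 ± 0.06, was next to TA81, the highest plate. TA94, also among the highest 3, was next to TA95, at -0.57 ± 0.06.

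**Figure D2:**
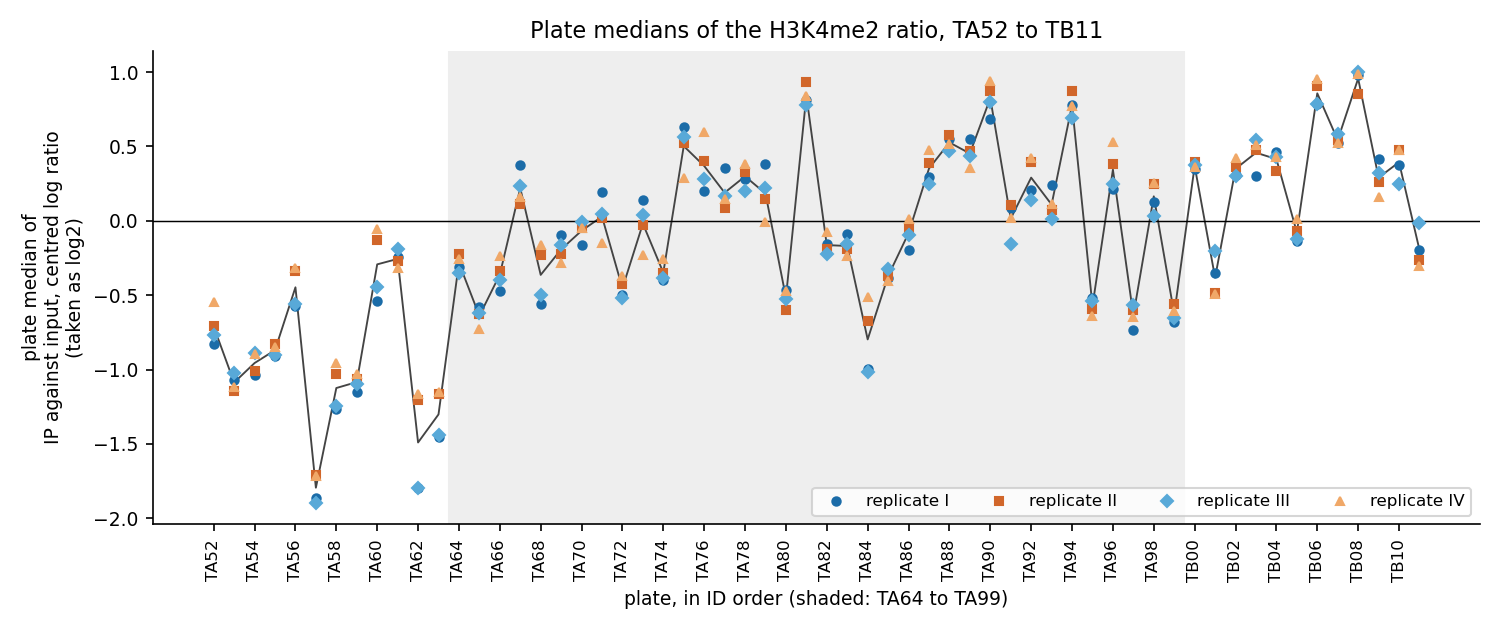
Median ratio of each plate (centred log ratio, taken as log2) from TA52 to TB11 in ID order; markers are replicates I to IV, the line is their mean, and the shading covers TA64 to TA99. In the shaded part the medians alternate around 0, from -0.80 (TA84) to 0.84 (TA81), after the low plates TA62 and TA63 at the left.

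On a finer scale the stretch was a mosaic of short high and low groups of probes. Among its 288 plate rows of up to 12 wells, 120 had a median above 0 in all 4 replicates and 128 below, while 10 were over 1 and 17 under -1 in all 4. The probes called above fell into 394 runs, averaging 2.195 probes each, and 194 of these runs were single probes. Those called below fell into 365 runs averaging 2.22, of which 185 were single. With 0 at the median probe, the mean lengths of high and low runs were thus about equal. Runs were not counted with 0 placed elsewhere. A size over 1 in the test gave 268 runs above and 230 below. On the TB plates the mean lengths were 2.64 above and 1.89 below, and on plates TA52 to TA63 2.47 and 4.21. Plates TA01 to TA20 had 2.24 and 2.29, so short runs of near-equal length were not particular to the stretch. Runs of 5 or more held 29.0% of the probes called above and 33.2% of those called below, where the whole array had 33.8% and 58.8%. On plates TA01 to TA20 these shares were 27.4% and 36%.

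The longest run above, TA76H06 to TA77A09, had 16 probes with means of 1.52, 1.23, 1.40 and 1.21 in replicates I to IV. All its probes lay between 0.75 and 2.22, and the highest of them was TA77A08. Plates TA76 and TA77 held the next runs as well: TA76D07 to TA76E03, 9 probes at 1.58 ± 0.05 (SD, n = 4) with its top at TA76E01 (2.63 ± 0.19), and TA77C10 to TA77D06, 9 probes at 1.34 ± 0.08 with its top at TA77C12 (1.97 ± 0.19). Of the same length were TA81D12 to TA81E08, at 1.20 ± 0.03, and TA89G03 to TA89G11, at 1.22 ± 0.09.

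The longest run below, TA84A11 to TA84C04, had 18 probes with means of -2.67, -2.06, -2.68 and -2.09. It held whole row B of TA84, the lowest of all 288 rows with a median of -2.55 ± 0.51 (SD, n = 4). Directly before it stood a group of high probes, from TA84A07 at 2.57 to TA84A10 at 2.40 in mean. The other long low runs were TA73C10 to TA73D08, 11 probes at -1.81 ± 0.02 with a lowest value at TA73C12 (-2.52 ± 0.20), and TA97F06 to TA97G04, 11 probes at -1.37 ± 0.09 with a lowest value at TA97G02 (-2.01 ± 0.24). Runs of 10 probes began at TA69E08 (-2.40 ± 0.05), TA71H10 (-1.50 ± 0.12) and TA95B09 (-2.21 ± 0.06).

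**Figure D3:**
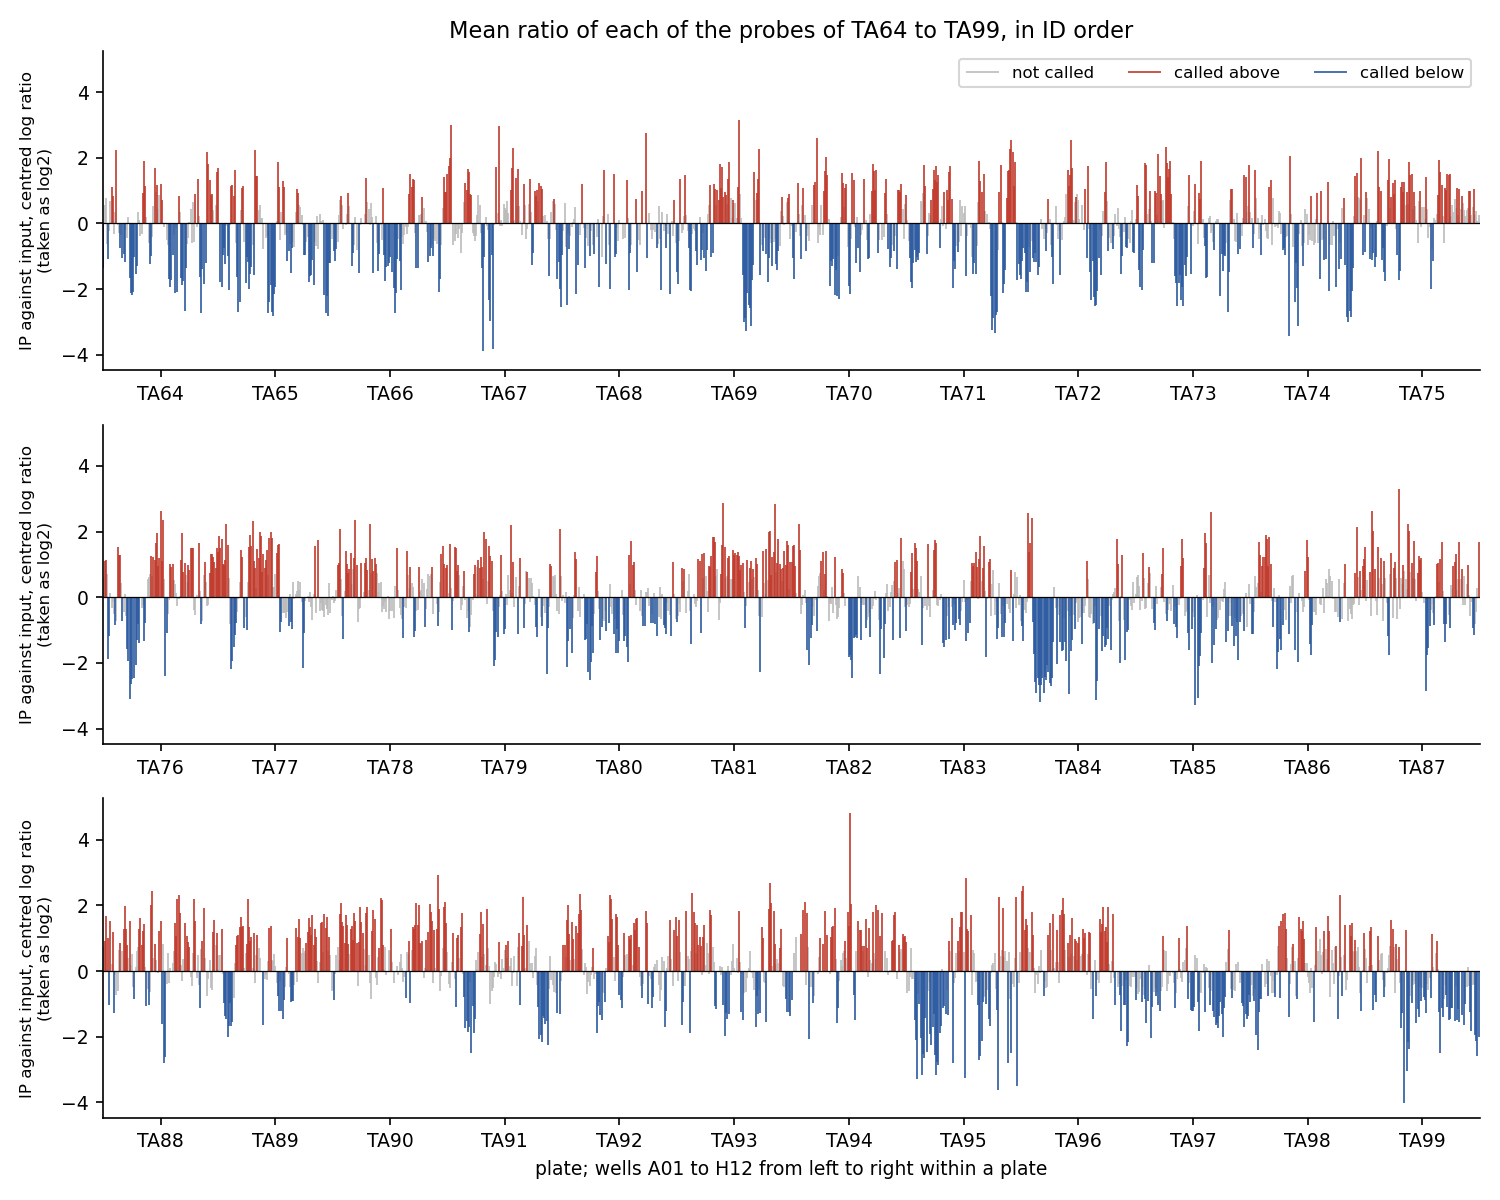
Mean ratio (centred log ratio, taken as log2, 4 replicates) of each valued probe of TA64 to TA99 in ID order, 12 plates per panel; red lines are the 865 probes called above, blue lines the 811 called below and grey lines the rest. High and low probes alternate in short groups on nearly every plate, with the longest low group at the start of TA84 and the tallest line at TA94E02.

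Neighbouring probes resembled each other over a few wells. The Pearson correlation across probes was 0.61 at 1 well apart (3220 pairs, 0.58 to 0.61 in single replicates), 0.42 at 2 wells, 0.29 at 3, 0.19 at 5 and 0.09 at 10, and it was -0.01 at 96 wells, a whole plate. On the TB plates it was 0.59, 0.36 and 0.23 at 1, 2 and 3 wells, and on plates TA52 to TA63 0.72, 0.54 and 0.43. Plates TA01 to TA20 had 0.56, 0.33 and 0.26 at these distances. All probes of a replicate share its hybridisations and are not replicates of each other, so these are descriptions. Medians by plate row ran from -0.13 ± 0.06 in row G to 0.16 ± 0.02 in row C (SD, n = 4), and those by well number from -0.18 ± 0.01 in well 4 to 0.11 ± 0.05 in well 7. These differences by position exceeded the spread between replicates. That spread comes from reading the same probes again, and does not measure how medians vary with which probes share a position. No effect of position is therefore read from them, and their part in the results was not tested.

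The 10 highest probes with 1 sign in all replicates ran from 2.75 to 4.82 in mean and lay on 8 plates. TA94E02, the highest of the array, had 4.68, 4.96, 4.40 and 5.23 in replicates I to IV. It stood in a group of high probes: TA94D12 had 1.81 ± 0.58 (SD, n = 4), TA94E01 1.37 ± 0.64 and TA94E03 2.04 ± 0.03, all called above. The ID after these, TA94E04, was 1 of 20 on this plate without a value, and TA94E05 and TA94E06 were below at -0.72 ± 0.14 and -1.48 ± 0.14. In ID order, the probes called above thus ran from TA94D12 to TA94E03, after TA94D11 at 0.41 ± 0.38, which was not called. Where the group ended on its later side is not known, because TA94E04 has no value.

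TA87C05, ninth on the array, had 3.35, 3.32, 2.98 and 3.55. Unlike TA94E02 it stood alone, between TA87C04 at -0.66 ± 0.38 (SD, n = 4) and TA87C06 at -0.37 ± 0.39. TA69E05 was at 3.14 ± 0.19 between neighbours at 1.11 and 0.89, and TA67A04 at 3.002 ± 0.34 after TA67A03 at 1.996. TA67D08 was at 2.96 ± 0.14 between direct neighbours at 0.30 and -0.08, with TA67D06 at 1.73. TA81D04 (2.87 ± 0.09) and TA81G11 (2.84 ± 0.13) lay within the highest plate, the first between neighbours at 1.60 and 1.54. TA95E03 was at 2.82 ± 0.12 and TA68F11 at 2.75 ± 0.10. The replicates of TA90H05 were further apart, at 2.45, 3.49, 2.16 and 3.55, with I and III below II and IV. Of the 18 valued direct neighbours of these probes, 10 were called above and 2 below, and their median was 1.19.

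The 10 lowest probes ran from -4.03 to -3.27 and lay on 7 plates. TA99C10 was lowest, at -4.53, -3.26, -4.54 and -3.78. It belonged to a low stretch, with TA99C12 at -3.05 ± 0.43 (SD, n = 4) and TA99D01 at -2.16 ± 0.34, but TA99C11 between them was at 1.24 ± 0.35. On plate TA67, TA67C07 was at -3.90 ± 0.06 between neighbours at -1.37 and -1.02, and TA67D03 at -3.81 ± 0.10 between -0.95 and -0.04. TA67D08, among the highest, is 5 wells further, so that a single plate with a median of 0.22 held probes from both ends of the distribution.

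Plate TA95 held 3 of the 10 lowest probes, TA95G06 (-3.64 ± 0.22, SD, n = 4), TA95H10 (-3.51 ± 0.11) and TA95A10 (-3.29 ± 0.16). The others were TA74C09 (-3.42 ± 0.24), TA71G03 (-3.34 ± 0.22), TA69E11 (-3.29 ± 0.08) and TA85E03 (-3.27 ± 0.14). TA71G03 and TA69E11 lay in low groups, with neighbours from -2.89 to -2.12, whereas TA74C09 had TA74C10 at 2.06 beside it. Of the 19 valued direct neighbours of the lowest probes, 9 were called below and 4 above.

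**Figure D4:**
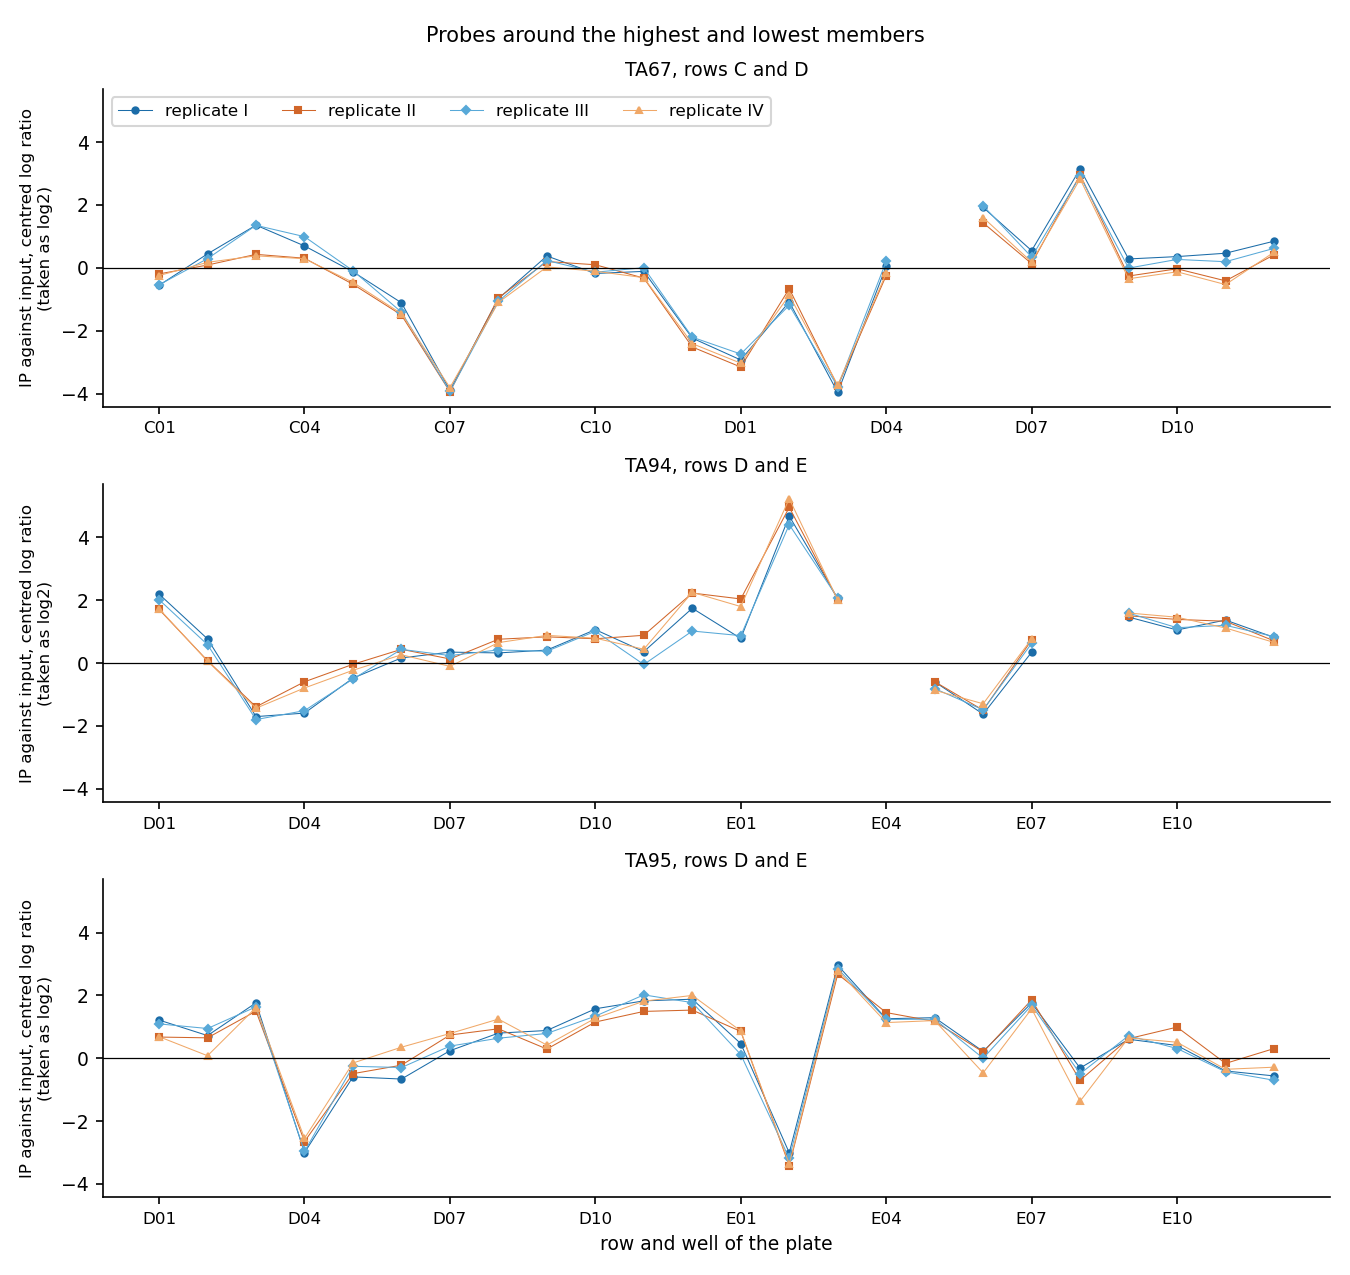
Ratio (centred log ratio, taken as log2) of each valued probe of 2 plate rows on TA67, TA94 and TA95 in replicates I to IV (markers); a line breaks where a probe has no value. TA94E02 (mean 4.82) tops a group of high probes, TA67D08 (2.96) stands between direct neighbours at 0.30 and -0.08, and TA95E02 (-3.24) lies far below both direct neighbours (0.58 and 2.82 in mean) in all 4 replicates.

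The sharpest changes between direct neighbours were found on plate TA95. From TA95E02 to TA95E03 the ratio differed by 5.97, 6.09, 6.04 and 6.16 in replicates I to IV, from -3.24 ± 0.19 (SD, n = 4) to 2.82 ± 0.12. No pair of neighbouring IDs on the array, of 20796, differed by more. TA95G06 to TA95G07 followed with 5.88 ± 0.23, and TA95H09 to TA95H10 with -5.78 ± 0.16, so that 3 of the 5 largest steps of the array were on this plate. TA74C09 to TA74C10 (5.48 ± 0.43) and TA99C10 to TA99C11 (5.26 ± 0.35) came next within the stretch. These pairs were singled out after their values were seen.

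Plate TA95 was accordingly the most uneven of the stretch, with an SD over probes of 1.49 where TA97, the most even, had 0.73. Its rows B and C were low, with medians of -1.96 ± 0.13 and -1.57 ± 0.15 (SD, n = 4), and its rows D and E were above 0, at 0.79 ± 0.08 and 0.49 ± 0.22. The single lows TA95D04 (-2.79 in mean) and TA95E02 lay inside these higher rows. Over the stretch, 33 of 3220 neighbouring pairs (1.02%) differed by more than 3, against 1.06% over the array, and the median step was 0.58 against 0.54. A probe called above stood directly next to one called below in 62 pairs, where both were above in 471 and both below in 446. The same counts over the array are not given here, so nothing is read from these.

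A called probe between direct neighbours that were both called on the opposite side occurred 6 times. TA99C11 was the one above, at 1.24 between -4.03 and -3.05. The 5 below were TA72E08, TA81B09, TA88A06, TA91F02 and TA98C02, with means from -1.09 to -0.81 between neighbours of 0.75 to 1.75. These were listed after their values were seen, and the array as a whole had 22 such probes below and 15 above.

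The replicates gave nearly the same profile over the stretch, in pairs. Across its 3332 probes Pearson's correlation reached 0.98 for I with III and 0.98 for II with IV, while the remaining pairs had 0.92 to 0.93. Their difference had an SD of 0.22 and 0.23 within these pairs and of 0.45 to 0.48 across them. The median SD of a probe over the 4 replicates was 0.20, and 2756 probes had 1 sign in all of them. The range over replicates exceeded 1 in 242 probes (7.26%), against 6.16% of all probes. In 164 of the 242, both II and IV lay above both I and III, and in 65 both lay below. The likeness of I with III and of II with IV follows no label, so no test was made along it.

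The label does put I and II in one set of title numbers and III and IV in another, and this difference had no part in the choice of plates. In limma's test of III and IV against I and II, 0 probes of the stretch passed an adjusted p of 0.05 (0% of all probes passed). An unadjusted p under 0.05 was found for 8 of its probes (0.24%), and for 0.131% of all probes. Each title set holds 1 replicate of each like pair, so the difference between the pairs entered the residual of this fit, and the 0 says little about the sets. A block fit, added after the likeness was seen, gave each like pair its own level. It had 1 residual degree of freedom per probe. There, 1 probe of the stretch (0.03%) passed the adjusted p, against 0.0423% of all probes. It was TA75E07, with 0.43, 0.06, -0.25 and -0.69 in I to IV. Unadjusted, 332 of the 3332 probes (9.96%) passed in that fit, against 7.65% of all. Leaving out a replicate leaves 1 set with a single sample, assumed to vary like the other set. These fits called TA91D01 without I or without III, and TA91E12 without IV.

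TA91D01 had the largest range over replicates, with -0.42, 0.17, -0.55 and -3.20 in I to IV. Replicate IV alone was low there, and its neighbours TA91C12 and TA91D02 were at 0.09 and -0.31 in IV. TA91E12 had 0.90, 1.53, -0.64 and 1.12, with III apart from the others. In the other 3 of the 5 widest probes, the difference was between the like pairs. TA84E03 had -1.74 and -1.65 in I and III but 0.32 and 0.70 in II and IV. TA85F04 had 1.53 and 1.66 against 3.40 and 3.83, beside TA85F05, which lay between -2.21 and -1.87 in all 4. TA76B10 had -2.55 and -2.81 against -1.54 and -0.87.

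Plate TA84 had the most probes with a range over 1, 19 of the 242, followed by TA79 with 13, TA68 and TA87 with 12 each and TA95 with 11. In 19 of the 19 on TA84 both II and IV lay above both I and III, so the other 145 of the 164 such probes were on other plates. The long low run in its rows A to C was deeper in I and III (-2.67 and -2.68) than in II and IV (-2.06 and -2.09). In row B the medians were -3.01 and -2.97 against -2.05 and -2.19. Around TA84E03 the probes TA84E04 to TA84E07 ran the same way, for example TA84E07 with -0.82 and -0.83 in I and III and 0.19 and 0.46 in II and IV. The run was below the median probe in every replicate, so its sign did not depend on the pair, while that of TA84E03 and TA84E07 did.

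**Figure D5:**
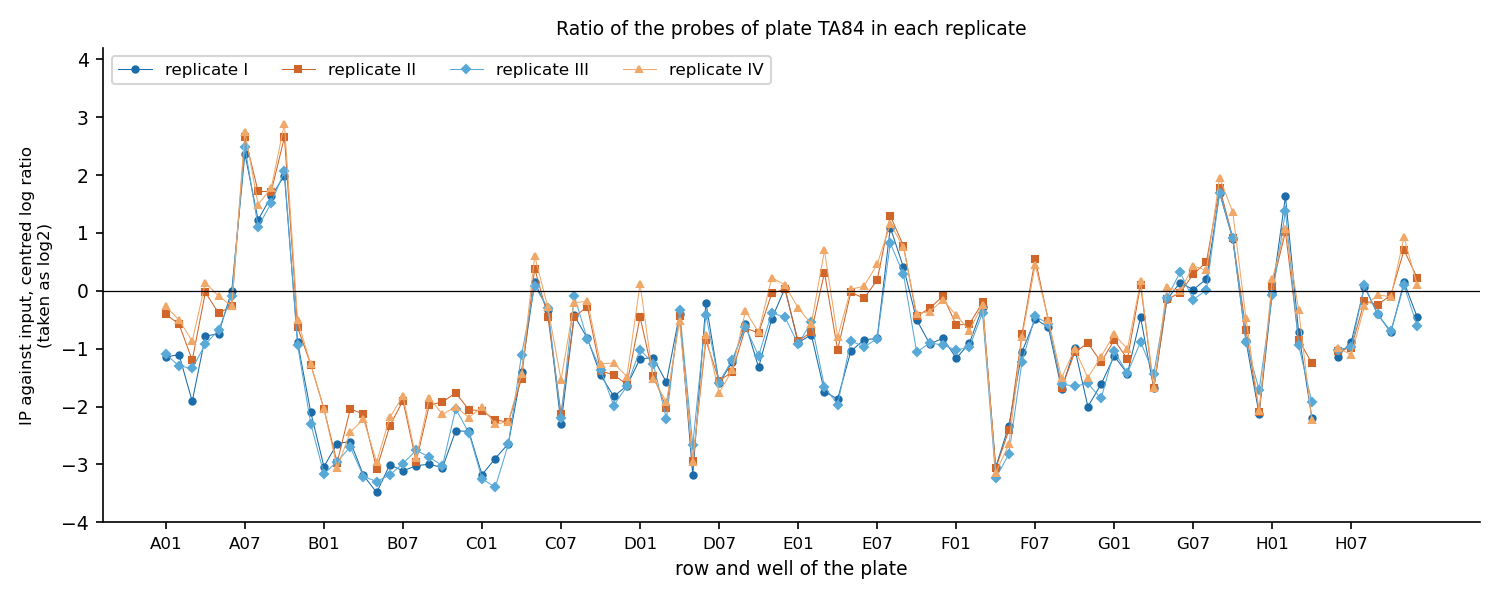
Ratio (centred log ratio, taken as log2) of each valued probe of plate TA84 in replicates I to IV (markers), wells A01 to H12 from left to right; a line breaks where a probe has no value. Replicates I and III (blue) run below II and IV (orange) over the low run from A11 to C04 (means -2.67 and -2.68 against -2.06 and -2.09) and around E03.

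IDs without a value made up 3.59% of the stretch (124 of 3456), against 1.87% of the other plate and well IDs. They were concentrated on TA94 with 20 and TA68 with 17, while 8 plates had a value in all 96 wells. On TA94, 19 of the 20 were in even-numbered wells, most of them in rows A, C, E and G. TA94E02, the highest probe of the array, has such a position too. Whether its value is tied to what left the other wells empty was not tested. These gaps end runs and remove neighbours.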

How the data were processed

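The deposited table holds 21800 IDs and 8 columns; per the labels these are 4 dye swaps of IP against input. The authors' deposited log ratios were treated as log2; how they were corrected and normalized is not given in the sources used. Identical dye-swap columns were taken once, and the median of each replicate was subtracted, with no loess or quantile step. Probes were tested in R 4.3.3 by limma 3.58.1 (lmFit, then treat for a size over 0.5, or eBayes for title sets, two-sided, Benjamini-Hochberg over 21295 probes). The fits were also run on simulated data with independent replicates. That run does not show how the fits behave with replicates in like pairs. Other steps used Python 3.11.15, numpy 2.4.6, pandas 2.3.3 and matplotlib 3.10.9. A run is a series of consecutive IDs called on 1 side, ended by an ID without a value. Named by rule were the 10 highest and 10 lowest probes with 1 sign in all replicates, the 5 with the widest range, the 3 longest runs per side (ties and shorter runs were added after their values were seen), the 3 highest and 3 lowest plates, and the borders. Plates, lists and rules were chosen with earlier results of these data known. The number of arrays limits the precision. Alternatives concerned the place of 0, normalization, thresholds, title sets and left-out replicates.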

Additional observations from a re-analysis of the deposited data

Results flagged for a closer look

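Of 68 results checked for a replicate apart from the other 3 (the stretch, its 36 plates, the named probes and the longest runs), 1 exceeded Dixon's critical value for the gap divided by the range. Probe TA68F11 had 2.69, 2.90, 2.71 and 2.71 in replicates I to IV, a ratio of 0.93 for replicate II. With independent replicates, chance would flag about 1 in 20 such groups. The replicates came in like pairs and the results checked share probes, so this rate may not hold here. The gap was small beside the probe's mean of 2.75.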

How the results depend on the processing

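In brackets are the shares of the stretch and of all probes. Probes called above the median probe numbered 865 (26.0% and 28.1%). With the deposited 0 they numbered 360 (10.8% and 10.7%), and with 0 at the mode of each replicate 351 (10.5% and 10.4%). The median of the TB plates as 0 gave 473 (14.2% and 14.6%). A size over 1 gave 423 (12.7% and 12.8%), and no size threshold 1332 (40.0% and 42.1%). Probes called below numbered 811 (24.3% and 30.6%). They numbered 1467 with 0 at the mode (44.0% and 45.3%) and 1328 at the TB median (39.9% and 41.9%). A size over 1 left 412 (12.4% and 20.3%), and no size threshold gave 1355 (40.7% and 42.3%). The deposited 0 gave 1204 (36.1% and 39.3%), within 1.5 times. A size over 1 cut the low runs from 365 to 230 and the high runs from 394 to 268. The median of the stretch was -0.51 with the deposited 0 and -0.62 at the mode, and plates above 0 in all replicates then numbered 1 and 2 in place of 15. Quantile normalization, an adjusted p of 0.01, the title sets as a term and a plain bound of 0.5 in all 4 replicates kept both counts of calls within 1.5 times, where they were run. With each replicate left out, calls above ran from 812 to 837 (26.4% to 27.0% over the array) and below from 759 to 784 (29.2% to 29.9%). The median of the stretch then ran from -0.016 to 0.0051, and the plates above from 15 to 17. The runs numbered 389 to 396 above and 347 to 363 below. The neighbour correlation ran from 0.60 to 0.61 and the median probe SD from 0.19 to 0.20. With the like pairs as a block, added after the data were seen, the title sets gave 1 call in place of 0. The neighbour correlation was 0.63 by Spearman. Of the 25 named probes, 18 moved by more than their SD without centring, and 0 called ones changed sign. Moves with the place of 0 follow from its shift; apart from these the cause was not tested. Scanner signals were not used here, so the signal over background behind a value is unknown.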
